A study of Mus musculus with 12 samples.

Results

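The response of wild-type (WT) mouse hearts to doxorubicin (DOX) was measured on 6 of the 12 Affymetrix arrays of the series, chosen by their titles as the 3 WT hearts given DOX and the 3 WT hearts given no treatment. The animals were male C57BL/6J mice of 8 to 10 weeks by the labels, and DOX was injected as 1 dose of 15 mg/kg with the hearts collected on day 5. The study's text gives a higher dose and an older age, and describes the WT controls as littermates injected with saline rather than untreated, so the vehicle of the control hearts was not settled by the sources. The other 6 arrays, used here only as a reference, came from CHIP-altered hearts with and without DOX, which the labels call knockout and the study's text calls a cardiac transgene. CHIP is a cochaperone and ubiquitin ligase encoded by Stub1. Each array was labelled as a biological replicate, whether RNA of several hearts was pooled was not stated, and the p-values below measure the spread between these samples. All 45037 probe sets were tested, of which 34945 name 1 gene, 932 name several and 9160 name none.

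DOX is an anthracycline that intercalates into DNA, poisons topoisomerase II and undergoes redox cycling, and its use in chemotherapy is limited by injury to heart muscle. DNA damage activates p53, whose targets halt the cell cycle or favour cell death. Heart muscle burns mainly fatty acids, whose use is set in part by the nuclear receptor PPAR-alpha, and muscle wasting is driven in part by FoxO transcription factors and by glucocorticoids. A whole heart also holds fibroblasts, vessel cells, resident macrophages and the blood left in it. In RNA from whole hearts, fewer cells of a type and less RNA per cell cannot be told apart.

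The heart was recognisable on all 6 WT arrays. Transcripts of ventricular muscle were among the brightest, with Myh6, the main adult myosin heavy chain, at a mean intensity of 22645 ± 406 (SD, n = 3) in WT control hearts. The atrial markers Myl7 and Bmp10 read 21.6 ± 2.07 and 24.5 ± 2.37 in WT control hearts, below the median of every array, which lay between 28.9 and 30.4. Of the 6 atrial markers measured, 2 were brighter, with a mean intensity of at least 64, among them Nr2f2. Arrays of WT control hearts correlated with each other at r = 0.996 to 0.997 over probe sets, those of WT DOX hearts at 0.991 to 0.994, and arrays of the 2 groups with each other at 0.983 to 0.992.

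The promoters of 5 genes that changed are given first, because each gene stands for a group described below: Gclm for antioxidant defence, Ccn1 for matricellular signalling, Bnip3 for muscle atrophy and mitophagy, H2-Aa for antigen presentation and Alas2 for the red cell lineage. Each line gives the 200 bases before the RefSeq start site in GRCm38.p6, 5′ to 3′ on the gene's strand, with 1 short motif in capitals. For Gclm the motif was TGACNNNGC, the core of the antioxidant response element. For Ccn1 it was CATTCC, which TEAD factors bind. For Bnip3 it was CACGTG, the E-box of MYC, USF and clock factors. For H2-Aa it was CCAAT, a common promoter box bound by NF-Y. For Alas2 it was AGATAA, a motif of erythroid transcription factors. They were searched on both strands in the 250 bases before the start of 32851 RefSeq promoters.
Gclm, chr3:122245357-122245556, plus strand: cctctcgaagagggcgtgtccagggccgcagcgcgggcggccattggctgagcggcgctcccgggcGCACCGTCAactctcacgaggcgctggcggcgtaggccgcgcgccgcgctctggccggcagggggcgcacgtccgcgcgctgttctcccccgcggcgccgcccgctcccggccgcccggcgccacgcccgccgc
Ccn1, chr3:145649986-145650185, minus strand: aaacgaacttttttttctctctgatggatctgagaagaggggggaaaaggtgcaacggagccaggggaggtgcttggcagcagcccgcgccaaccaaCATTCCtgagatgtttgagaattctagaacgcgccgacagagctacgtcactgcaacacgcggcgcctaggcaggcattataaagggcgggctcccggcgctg
Bnip3, chr7:138909507-138909706, minus strand: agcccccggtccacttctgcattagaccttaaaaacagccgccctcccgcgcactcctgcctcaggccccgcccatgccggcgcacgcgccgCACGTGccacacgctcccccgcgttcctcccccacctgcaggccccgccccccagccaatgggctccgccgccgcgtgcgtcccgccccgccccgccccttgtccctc
H2-Aa, chr17:34287824-34288023, minus strand: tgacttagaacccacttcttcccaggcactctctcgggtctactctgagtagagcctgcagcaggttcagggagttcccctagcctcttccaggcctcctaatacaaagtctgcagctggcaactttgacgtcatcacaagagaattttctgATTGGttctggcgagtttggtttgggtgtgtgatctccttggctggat
Alas2, chrX:150547217-150547416, plus strand: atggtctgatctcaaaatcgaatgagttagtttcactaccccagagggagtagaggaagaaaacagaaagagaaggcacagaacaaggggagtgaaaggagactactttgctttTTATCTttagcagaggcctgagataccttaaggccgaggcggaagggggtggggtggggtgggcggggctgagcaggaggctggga
Counted from the start site, the capitals began at position -134 for Gclm, -103 for Ccn1, -108 for Bnip3, -48 for H2-Aa and -86 for Alas2. For Gclm, RefSeq also gives a gene edge at 122245487, upstream of the start site used, 122245557. By that edge the last bases shown for Gclm lie within the gene. The Gclm, H2-Aa and Alas2 matches lie on the opposite strand, and CACGTG reads the same on both. Such motifs are common, being held by 10.2% of promoters for TGACNNNGC, 12.6% for CATTCC, 6.02% for CACGTG, 33.8% for CCAAT and 9.99% for AGATAA. A match describes the letters only and is not evidence of binding.

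Across the whole array, 1379 probe sets changed with DOX in WT hearts, 749 higher and 630 lower. The call was a limma p, Benjamini-Hochberg adjusted over all 45037, of under 0.05, and the fold changes are differences of mean log2(intensity + 32), a scale that understates the change of dim probe sets. The calls made up 3.06% of probe sets tested, 1.66% higher and 1.4% lower. They named 981 genes, 479 higher and 502 lower. Most changes were small, and 67 probe sets were at least 2-fold higher and 46 at least 2-fold lower. Counting 1 probe set a gene, that with the highest mean over the 12 arrays, 316 of 18161 genes rose (1.74%) and 405 fell (2.23%), which is 3.97% called, while an unadjusted p under 0.05 was reached by 22.2% of genes, 9.78% higher and 12.5% lower. The median log2 fold change over all these genes was -0.02. These shares are the background against which the counts of each gene group below are given. The gene lists were chosen with earlier results of these data known, so a rank among them is descriptive only.

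**Figure D1:**
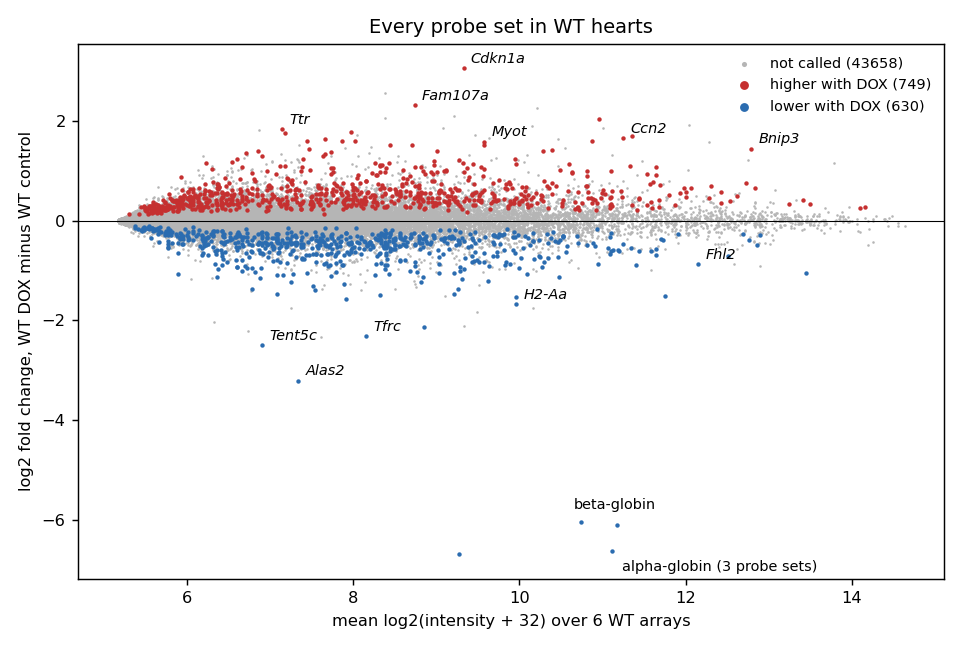
Log2 fold change of each of 45037 probe sets (WT DOX minus WT control) against its mean log2(intensity + 32) over the 6 WT arrays, with called probe sets in red (749 higher) and blue (630 lower) and the rest in grey. The 4 globin probe sets stand apart at the bottom, between -6.03 and -6.69, and Cdkn1a at the top at 3.05.

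The calls rested on few arrays, and the WT arrays did not weigh equally. Over the 1379 called probe sets, WT DOX replicate 3 was the treated array nearest the controls in 738 (53.5%), against 386 for replicate 1 and 255 for replicate 2. Among the control arrays, WT control replicate 1 was nearest the treated hearts in 642 (46.6%). Of the 82 genes named below that were called, 42, 12 and 7 were still called without WT control replicate 1, 2 and 3, and 20, 9 and 72 without WT DOX replicate 1, 2 and 3, and none changed direction. Bnip3, Fhl2, Lum, Myot, Retsat and Timd4 were called in each of these 6 fits. Calls therefore ended most often without WT control replicate 3, followed by WT DOX replicate 2, WT control replicate 2 and WT DOX replicate 1, and in most paragraphs below the adjusted p without WT control replicate 3 is given.

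The largest change in WT hearts was in globin RNA, which was lower with DOX. The probe sets concerned are assigned by the annotation to more than 1 globin gene, so no single gene can be named, and they were picked out after their values were seen. The brightest probe set of the 2 adult alpha-globin genes read 14487, 26756 and 27119 in the WT control hearts and 551, 80.9 and 136 in the WT DOX hearts. The control readings of replicates 2 and 3 were the highest on their arrays, and whether they had reached the top of the scanner's range was not stated. The control hearts were at least 89.1-fold brighter on average (log2 fold change -6.62 ± 0.63, SE, limma adjusted p = 0.0034). A second alpha-globin probe set was 63.8-fold brighter in control hearts. The other one read 4349, 3633 and 15253 against 66.1, 15.4 and 16.2, where the last 2 treated hearts lay below the array median, so its difference of -6.69 has no exact fold. The beta-globin probe set read 8235, 17122 and 18681 in WT control hearts and 266, 143 and 151 in WT DOX hearts (log2 fold change -6.03 ± 0.47, SE, limma adjusted p = 0.0034). Control and treated hearts did not overlap on any of the 4, as every treated heart lay below every control for 12.8% of all probe sets. The 4 were picked for their values, so this adds no separate support. The 4 probe sets were called without any 1 of the 6 WT arrays, with limma adjusted p at most 0.026. The CHIP-altered hearts showed changes of -4.33 to -5.74 on the same probe sets, with limma adjusted p from 0.005 to 0.014.

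Some other genes of the red cell lineage fell too. Of 11 measured globin and erythroid genes, each on its brightest 1-gene probe set, 4 fell, none rose and all 11 lay below 0. The list median was -0.44 against -0.02 over all genes. Alas2, the erythroid enzyme that starts haem synthesis, read 177, 538 and 978 in WT control hearts and 33.4, 17.9 and 14.7 in WT DOX hearts. The control hearts spread widely among themselves, yet the groups did not overlap (-3.21 ± 0.57, SE, limma adjusted p = 0.025). Tfrc, the transferrin receptor that brings iron into cells, went from 631 ± 224 to 98.2 ± 26.5 without overlap (-2.32, adjusted p = 0.025), while its other 2 probe sets read -0.25 and -0.12. Hbb-b2, a beta-globin gene, fell by 0.90 and Bpgm, the red cell enzyme that makes 2,3-bisphosphoglycerate, fell by 1.03 on the log2 scale (adjusted p = 0.014 and 0.036). The probe set that names Hba-a1 alone read 9.14 ± 0.798 in control and 8.76 ± 0.785 in treated hearts, far below the array median, and that of Hba-a2 alone was as dim, with a difference of -0.01. Outside this list, Tent5c, a poly(A) polymerase abundant in red cell precursors and plasma cells, went from 92.4, 338 and 476 to 16.4, 18.6 and 20.7 (-2.50, adjusted p = 0.031). Alas2, Bpgm and Tent5c all ran lowest in WT control replicate 1 among the controls, and without WT control replicate 3 their adjusted p was 0.085, 0.11 and 0.11. The iron handling genes showed no call in 9 measured, with a median of 0.02. Slc25a37, mitoferrin, which carries iron into mitochondria, read 349 ± 157 and 136 ± 9.63 (adjusted p = 0.052).

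Among genes taken on their brightest 1-gene probe set, the largest rise was that of Cdkn1a, which encodes the cyclin-dependent kinase inhibitor p21, a p53 target. It read 211, 175 and 190 in WT control hearts and 2339, 2594 and 1000 in WT DOX hearts, a 10.3-fold difference of means. WT DOX replicate 3 lay well under the other 2 treated hearts but still above every control. The log2 fold change was 3.05 ± 0.68 (SE, limma adjusted p = 0.046), and the adjusted p was 0.035 without WT DOX replicate 3 and between 0.087 and 0.14 without any other WT array. Fam107a, an actin-associated stress-responsive protein, rose from 145, 201 and 140 to 1099, 1067 and 663 (2.31, adjusted p = 0.024). Ttr, the carrier of thyroid hormone and retinol-binding protein, rose from 50.9, 46.2 and 33.9 to 389, 245 and 133 (1.83, adjusted p = 0.045). Sema5a, a semaphorin, rose by 1.76 and Spock2, a proteoglycan of the matrix, by 1.59 on the log2 scale. Sult1a1, a phenol sulfotransferase, Aox1, aldehyde oxidase, and Retsat, which saturates retinol, are enzymes of small-molecule metabolism, and they rose by 1.59, 1.52 and 1.39. Retsat read 303, 259 and 295 in control and 647, 966 and 823 in treated hearts (adjusted p = 0.0044). Abra, which links actin to serum response factor, rose by 1.51 and Cnksr1, a scaffold of Ras signalling, by 1.33. If WT control replicate 3 was omitted, the adjusted p was 0.093 for Fam107a, 0.15 for Ttr, 0.069 for Sema5a, 0.07 for Spock2 and Abra, 0.099 for Aox1 and 0.093 for Cnksr1, and Retsat alone of the largest rises in this paragraph was still called, at 0.03.

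**Figure D2:**
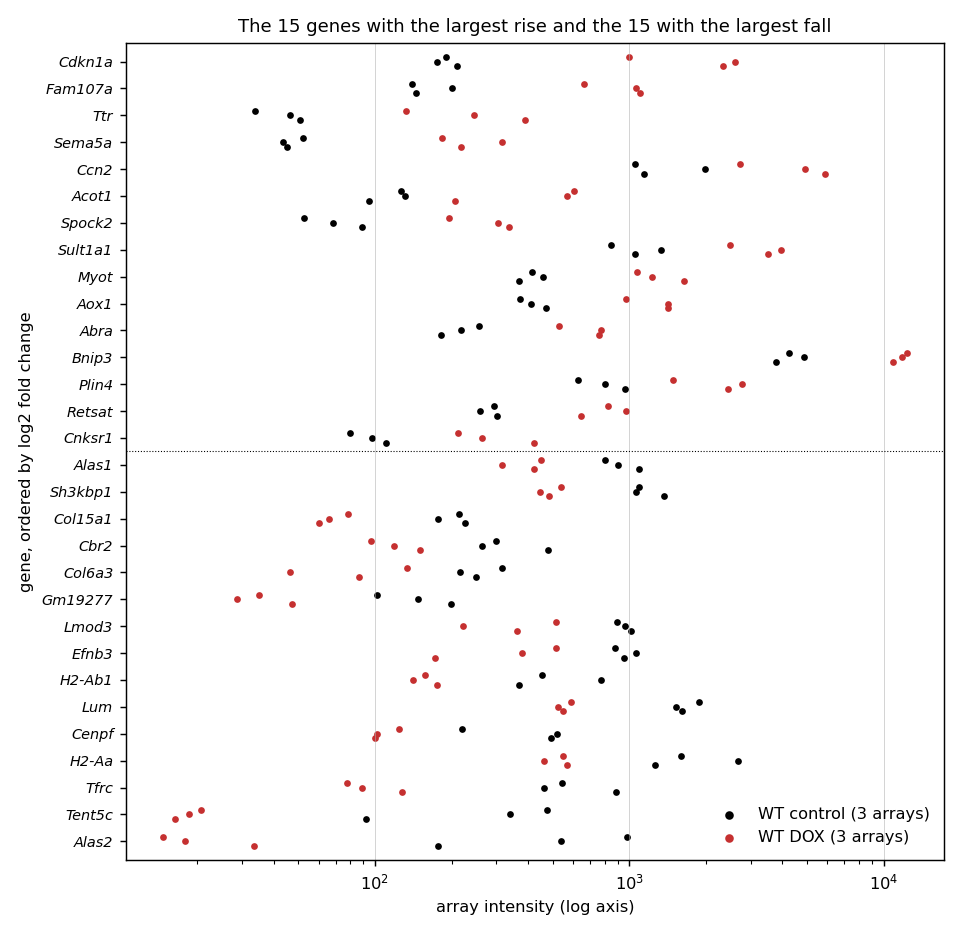
Intensity on each WT array (log axis) of the 15 called 1-gene probe sets with the largest rise and the 15 with the largest fall, black for the 3 WT control and red for the 3 WT DOX hearts, ordered by log2 fold change from Cdkn1a (3.05) to Alas2 (-3.21). The groups do not overlap for any of the 30, which the rule that chose them required, and Alas2, Tent5c and Cenpf spread widely among the control hearts.

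Among the largest falls outside the red cell lineage were matrix, antigen-presenting and muscle genes. Cenpf, a centromere protein of dividing cells, read 492, 520 and 219 in WT control hearts and 99.6, 102 and 124 in WT DOX hearts (-1.57, limma adjusted p = 0.036). Efnb3, an ephrin ligand, fell by 1.47 and Lmod3, a leiomodin of the thin filament, by 1.38 on the log2 scale. Sh3kbp1, an adaptor of receptor endocytosis, fell by 1.21 and Cbr2, a carbonyl reductase, by 1.28. Alas1, the haem synthesis enzyme of cells other than red cell precursors, read 1093, 899 and 802 in control and 421, 316 and 451 in treated hearts, with a second probe set called the same way (-1.17 and -0.68, adjusted p = 0.016 for the first). The predicted gene Gm19277 fell by 1.37. Without WT control replicate 2 the adjusted p of Cenpf, Efnb3, Lmod3, Cbr2, Alas1 and Gm19277 was 0.12, 0.11, 0.13, 0.064, 0.055 and 0.06. For Sh3kbp1 it was 0.044 there but 0.052 without WT control replicate 3 and 0.05 without WT DOX replicate 2, where it was not called, and for Alas1 it was 0.052 without WT control replicate 3.

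Beyond Cdkn1a, no DNA damage signalling gene passed the test on its brightest probe set. Of 23 measured p53 target genes, Cdkn1a alone passed the test, 7 had an unadjusted p under 0.05 and all 7 of these were higher, and the median was 0.10. Trp53inp1, which promotes autophagy and cell death under p53, read 449, 503 and 548 in WT control hearts and 1505, 1748 and 665 in WT DOX hearts (1.22, limma adjusted p = 0.072). Sesn1, a sestrin, read 1404 ± 186 and 2496 ± 520 (adjusted p = 0.066), and another of its probe sets was called higher. Mdm2, which degrades p53, read 354 ± 15.8 and 376 ± 25.5 (adjusted p = 0.87), so a change was not detected. Among 21 DNA damage and repair genes there was no call and the median was 0.04. Ercc1, a nuclease subunit of excision repair, read 0.32 with an adjusted p of 0.066 on its brightest probe set, and another was called higher. Top2b, the topoisomerase II of non-dividing cells, read 611 ± 27.2 and 602 ± 40.3.

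Of the apoptosis regulators 1 rose and 1 fell. Among 20 measured, Bcl2l1, which encodes the anti-apoptotic Bcl-xL, rose from 398, 408 and 386 in WT control hearts to 981, 1074 and 743 in WT DOX hearts (1.15 ± 0.17, SE, limma adjusted p = 0.016). Bak1, a pore-forming killer protein, fell from 63.9, 66.8 and 63.7 to 43.2, 43.8 and 51.4 (-0.31, adjusted p = 0.019). Both groups of arrays were tight and apart, and without WT control replicate 3 the adjusted p was 0.071 and 0.073. The other probe sets of Bcl2l1 ranged from -0.00 to 0.43 and none of them was called. The median of the list was -0.02. Bcl2 read 109, 109 and 115 against 117, 79.9 and 217.

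Most of the listed genes of dividing cells were dim in these hearts. None of 28 cell cycle and DNA replication genes was called, 24 lay below 0 and the median was -0.10. Only 7 of them had a mean intensity of at least 64. Cenpf, described above, lies outside this list and was called lower. Ccnd2 and Cks1b, cell cycle genes picked out after their values were seen, each had a probe set called lower. Top2a, the topoisomerase II of dividing cells, read 35.1 ± 11 in WT control and 15.3 ± 2.99 in WT DOX hearts (limma adjusted p = 0.059), near the array median. Cdk1 read 36 ± 7.09 and 21.6 ± 1.96 (adjusted p = 0.06). A probe set assigned to many copies of histone H4 went the other way, from 873, 669 and 694 to 2253, 2907 and 1204 (1.39, adjusted p = 0.028, and 0.11 without WT control replicate 3). It was picked out after its values were seen.

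A few genes of lipid storage and release rose. Of 15 measured PPAR-alpha target and fasting genes, 4 rose and none fell, and the median of 0.71 was the second highest of the 45 lists. Acot1, which frees fatty acids from coenzyme A, read 94.6, 131 and 127 in WT control hearts and 207, 568 and 606 in WT DOX hearts (3.92-fold in the means, limma adjusted p = 0.047). Plin4, a coat protein of lipid droplets, rose from 963, 803 and 628 to 2445, 2766 and 1489 (1.42, adjusted p = 0.029). Plin5, which tethers droplets to mitochondria, rose by 0.80 and Pnpla2, the lipase that starts triglyceride breakdown, by 0.97 (adjusted p = 0.044 and 0.03). Pdk4, which shuts pyruvate out of the mitochondria, read 2499, 4486 and 2090 against 7181, 9692 and 8951, a 2.85-fold difference with no overlap that missed the threshold (1.57 ± 0.38, adjusted p = 0.059). Ppara itself read -0.01 and Ucp3, an uncoupling protein, -0.27. Leaving out WT control replicate 3, the adjusted p of Acot1, Plin4, Plin5 and Pnpla2 was 0.13, 0.11, 0.14 and 0.11.

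The enzymes that burn fuel changed less. None of 18 measured fatty acid uptake and oxidation genes was called, although 14 lay above 0 with a median of 0.13. Cd36, the fatty acid transporter, read 7218 ± 70.8 in WT control and 9409 ± 659 in WT DOX hearts (0.38, limma adjusted p = 0.064), with another probe set called higher. Of 17 glucose uptake and glycolysis genes, Pkm, pyruvate kinase of muscle, fell by 0.36 (adjusted p = 0.025, and 0.097 without WT control replicate 3) and the median was -0.14. Hk2, the insulin-regulated hexokinase, read 2058 ± 227 and 1174 ± 200, which lay at the threshold (-0.80, adjusted p = 0.05, not called). Slc2a4, the insulin-responsive glucose transporter, read 3601 ± 293 and 2768 ± 161 (adjusted p = 0.19). Of 34 oxidative phosphorylation genes none was called and the range was from -0.39 (Uqcrc1) to 0.17 (Ndufv1), with a median of -0.05. Of 16 mitochondrial biogenesis and dynamics genes none was called (median -0.08), and Ppargc1a, the coactivator that drives biogenesis, read 1526 ± 196 and 1690 ± 173. The 18 cholesterol synthesis and uptake genes held no call (median -0.06), nor did 7 adipocyte markers (median -0.01), all of which were dim.

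Some genes of muscle atrophy rose. Of 15 measured FoxO and muscle atrophy genes, 4 rose, none fell, 14 lay above 0 and the median was 0.47. Bnip3, a receptor that directs mitochondria to autophagy, rose from 3788, 4875 and 4225 in WT control hearts to 10863, 11805 and 12379 in WT DOX hearts. It was among the brightest genes to change and had 1 of the smallest adjusted p (1.44 ± 0.13, SE, limma adjusted p = 0.0034). Ctsl, the lysosomal protease cathepsin L, rose by 1.10 and Gabarapl1, which builds autophagosomes, by 1.01, and Eif4ebp1, a brake on translation, by 0.59 (adjusted p = 0.016, 0.02 and 0.034). Fbxo32 and Trim63, the muscle ubiquitin ligases atrogin-1 and MuRF1, read 1114 ± 114 against 2279 ± 788 and 2278 ± 452 against 3159 ± 471 and were not called (adjusted p = 0.19 and 0.11). WT DOX replicate 3 was the lowest treated heart for both ligases. Without WT control replicate 3 the adjusted p was 0.023 for Bnip3, 0.071 for Ctsl, 0.083 for Gabarapl1 and 0.12 for Eif4ebp1.

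Some protein turnover genes were called, while the medians of their lists lay near 0. Of 15 measured autophagy genes 2 rose and 1 fell, with a median of 0.08. Sqstm1, the adaptor p62 that hands ubiquitinated cargo to autophagosomes, rose from 2213, 1908 and 2244 in WT control hearts to 3898, 4752 and 3727 in WT DOX hearts (0.94, limma adjusted p = 0.013). Map1lc3b, the LC3 protein of the autophagosome membrane, rose by 0.66 and Atg7, which activates it, fell by 0.15, on arrays that hardly varied (125 ± 1.44 against 109 ± 3.14, adjusted p = 0.025). The other Atg7 probe sets ranged from -0.10 to 0.04 and were not called, and in CHIP-altered hearts the same probe set rose, from 101 ± 3.65 to 120 ± 1.02 (0.19, adjusted p = 0.014, and 0.076 for the difference between the responses). Of 23 proteasome subunit genes Psmd4, Psmd11 and Psmc3, all of the regulatory particle, rose by 0.57, 0.48 and 0.22. Psmb3, of the core, fell by 0.17, and the list median was 0.02. At an unadjusted limma p under 0.05, 10 of the 23 were higher and 3 lower, against 9.78% and 12.5% of all genes. Of 16 chaperone genes Hspb6, a small heat shock protein of muscle, fell by 0.38 (adjusted p = 0.03) and none rose. Stub1, the gene for CHIP, read 1857, 1831 and 1790 in control and 1944, 1950 and 1930 in treated hearts. These did not overlap, but the difference of 0.09 was far from the threshold (adjusted p = 0.8). The 16 cytosolic ribosomal protein genes held no call, with a median of 0.03. With WT control replicate 3 left out, the adjusted p of Sqstm1, Map1lc3b, Atg7 and Hspb6 was 0.052, 0.11, 0.09 and 0.1, and that of Psmd4, Psmd11, Psmc3 and Psmb3 was 0.12, 0.096, 0.16 and 0.1.

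**Figure D3:**
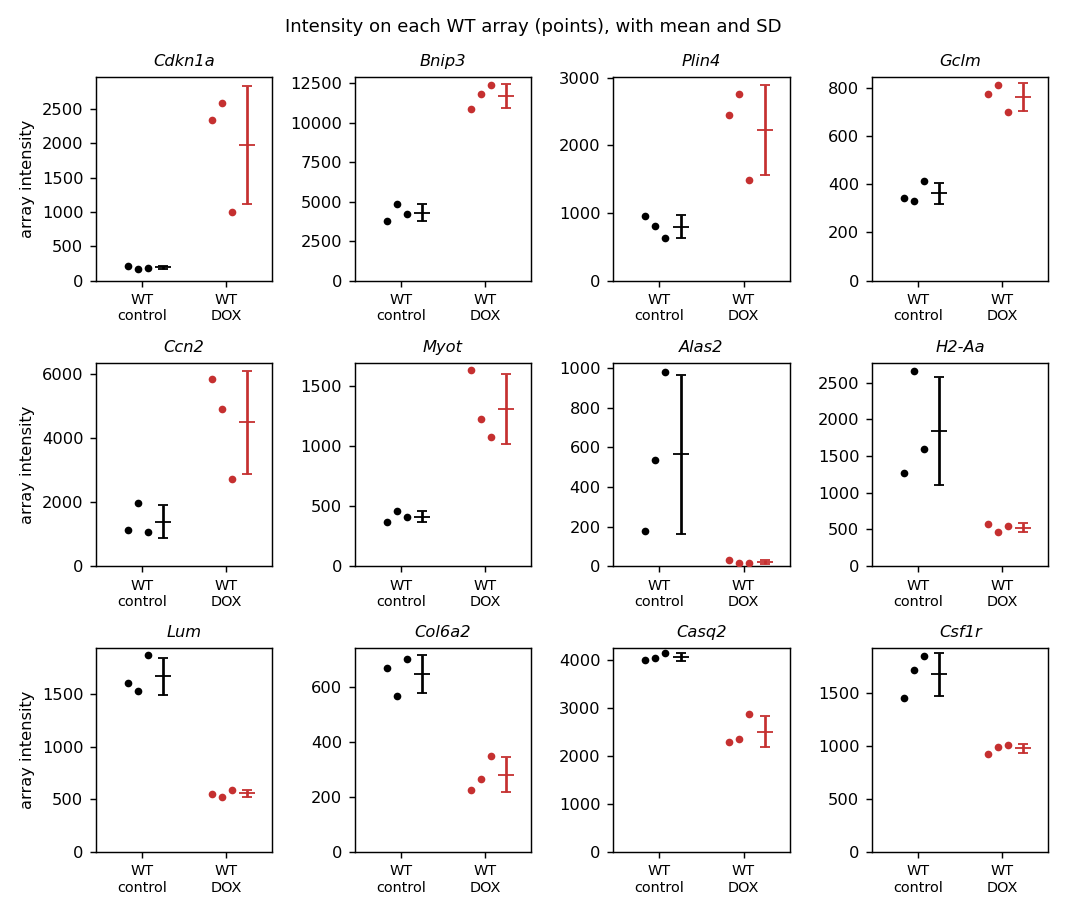
Intensity of 12 genes on each WT array (points, linear axis from 0), with the mean and SD of each group of 3 to the right of its points, black for WT control and red for WT DOX. Bnip3, Gclm, Lum and Casq2 are tight in both groups, Cdkn1a and Plin4 are lowest in WT DOX replicate 3, and the control hearts spread widely for Alas2 and H2-Aa.

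Some antioxidant genes rose. Of 19 measured antioxidant and NRF2 target genes, 4 rose and none fell, with a median of 0.19. Gclm, the regulatory subunit of the enzyme that limits glutathione synthesis, rose from 343, 329 and 413 in WT control hearts to 776, 811 and 699 in WT DOX hearts (1.02 ± 0.16, SE, limma adjusted p = 0.018), and its second probe set was called too. Hmox1, haem oxygenase 1, rose from 68.5, 65.1 and 67.8 to 152, 276 and 134 (1.09, adjusted p = 0.027). Cat, catalase, rose by 0.69 and Gstm1, a glutathione transferase, by 0.44 (adjusted p = 0.029 and 0.028). Every treated heart lay above every control for these 4 genes, as for 11.6% of all probe sets. They were chosen as called, so this adds no separate support. Nqo1, a quinone reductase and classical NRF2 target, read 453 ± 61.5 and 668 ± 89 (0.53, adjusted p = 0.076), and Gpx3, a secreted glutathione peroxidase, had the highest value of the list at 1.19 with an adjusted p of 0.22. Without WT control replicate 3 the adjusted p was 0.057 for Gclm, 0.096 for Hmox1 and 0.1 for both Cat and Gstm1.

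The metal-binding metallothioneins were high but variable. Mt2 read 590, 432 and 516 in WT control hearts and 2350, 4194 and 1705 in WT DOX hearts, and Mt1 went from 4515 ± 541 to 10618 ± 2157. The groups did not overlap for either, yet neither was called (2.26 ± 0.67 and 1.21 ± 0.32, SE, limma adjusted p = 0.1 and 0.072). The other 8 genes of the metallothionein and zinc transport list held no call, and the median of its 10 was -0.04. Of 8 genes for DOX transport and reduction none was called. Abcb1a, a P-glycoprotein that pumps DOX out of cells, read 244, 205 and 265 against 400, 327 and 345 (0.53, adjusted p = 0.056).

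Genes of the glucocorticoid response had the highest median of the 45 lists. Of 13 measured, 12 lay above 0 and the median was 0.76, but 1 rose and 1 fell by the test. The gene that rose was Sult1a1, from 1048, 1330 and 848 in WT control hearts to 3504, 3945 and 2477 in WT DOX hearts (1.59 ± 0.25, SE, limma adjusted p = 0.017). The gene that fell was Nr3c1, the glucocorticoid receptor itself, from 516, 477 and 569 to 328, 345 and 372 (-0.54, adjusted p = 0.014). Among the classical targets, Fkbp5, a cochaperone of the receptor, read 241, 295 and 228 against 1063, 1400 and 668 (1.85, adjusted p = 0.063). Zbtb16, a zinc finger repressor, read 549, 454 and 181 against 1350, 1390 and 1056 (1.72, adjusted p = 0.052). Klf15, a muscle metabolic regulator, read 297 ± 32.7 and 534 ± 134 (0.76, adjusted p = 0.06). No treated heart overlapped a control for these 3, which missed the threshold. Every treated heart lay above every control for 11.6% of all probe sets. Array by array, the list's median shift from the control mean was 0.95, 1.00 and 0.33 in WT DOX replicates 1, 2 and 3. When WT control replicate 3 was left out, the adjusted p was 0.075 for Sult1a1 and 0.057 for Nr3c1.

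Of the clock genes 1 was called on its brightest probe set, and it was lower. The time of day at which hearts were taken was not stated for either group. Of 17 measured, Nr1d1, the repressor REV-ERB alpha, fell from 177, 223 and 187 in WT control hearts to 134, 127 and 119 in WT DOX hearts (-0.52, limma adjusted p = 0.03, and 0.093 without WT control replicate 3). Dbp, an output gene of the clock, read 1341 ± 225 and 366 ± 150 on its brightest probe set (-1.84, adjusted p = 0.056), and its other probe set was called at -2.13. Arntl, which encodes the activator BMAL1, read 36.8 ± 7.94 and 95.9 ± 30.2 (adjusted p = 0.42). Per1 read 529 ± 45.5 and 562 ± 105. The list's median was -0.13, with 8 genes above 0 and 9 below.

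None of the immediate early, ATF4 target or STAT3 pathway genes passed the test. Of 20 immediate early genes 16 lay above 0 with a median of 0.33, and the median shift was 0.49 in WT DOX replicate 2 against 0.19 and 0.02 in replicates 1 and 3. Fosl2, a subunit of AP-1, read 125 ± 8.13 and 290 ± 118 (limma adjusted p = 0.15). Of 19 genes of the ATF4 and amino acid synthesis list 12 lay below 0 and the median was -0.03. Ddit4, which restrains mTORC1 under stress, was its highest at 1.45 (877 ± 67.4 and 2557 ± 891, adjusted p = 0.15). Of 14 gp130 and STAT3 pathway genes 9 lay above 0 and the median was 0.18. Osmr, the oncostatin M receptor, read 290 ± 19.3 and 663 ± 215 (adjusted p = 0.17) and Stat3 read 661 ± 99.2 and 976 ± 136 (adjusted p = 0.16).

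Of 17 insulin, IGF1 and AKT pathway genes 3 rose and none fell, with a median of 0.25. Pik3r1, the regulatory subunit of PI3-kinase, rose from 1569, 1405 and 1178 in WT control hearts to 2357, 2255 and 2137 in WT DOX hearts (0.70, limma adjusted p = 0.036). Pdpk1, the kinase that activates AKT, rose by 0.55 and Mtor by 0.43 (adjusted p = 0.021 and 0.044). Igf1 read 208 ± 34.7 and 123 ± 23.8 (-0.64, adjusted p = 0.076). Of 16 MAP kinase pathway genes 2 fell and none rose, with a median of -0.11. Mapk9, which encodes JNK2, fell by 0.23 and Map2k6, which activates p38, by 0.54 (adjusted p = 0.041 and 0.03). Without WT control replicate 3 the adjusted p of Pik3r1, Pdpk1, Mtor, Mapk9 and Map2k6 was 0.13, 0.075, 0.15, 0.14 and 0.1.

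Contractile genes changed singly. Of 24 measured sarcomere genes 2 rose and 2 fell, with a median of -0.04. Myot, myotilin of the Z-disc, rose from 369, 459 and 413 in WT control hearts to 1635, 1225 and 1075 in WT DOX hearts (1.58 ± 0.14, SE, limma adjusted p = 0.0034). Des, desmin, the intermediate filament of muscle, rose by 0.40 (adjusted p = 0.039, and 0.14 without WT control replicate 3). Fhl2, a LIM protein bound to titin, fell from 6250, 6352 and 5826 to 3336, 2905 and 3805 (-0.88 ± 0.08, SE, adjusted p = 0.0034). Nebl, nebulette, fell by 0.48 (adjusted p = 0.039, and 0.13 without WT control replicate 2). Myh6 read 22595, 22266 and 23074 against 13705, 15302 and 22945, so that WT DOX replicate 3 lay within the controls (-0.42, adjusted p = 0.16, and 0.0032 without that array).

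The genes that mark wall stress did not move together. Of 11 measured fetal and wall stress genes Xirp1, an actin-binding protein of the intercalated disc, rose from 670, 561 and 519 in WT control hearts to 826, 894 and 860 in WT DOX hearts (0.54, limma adjusted p = 0.02, and 0.075 without WT control replicate 3). The list's median was 0.11. Nppa and Nppb, the natriuretic peptides, read 9428, 6579 and 3556 against 10374, 4608 and 6592, and 6895, 6112 and 6874 against 8368, 1659 and 7699. Acta1, skeletal actin, read 1479, 380 and 2393 against 879, 88.6 and 4431. WT DOX replicate 2 was the lowest of the 6 hearts for Nppb and Acta1, and neither these nor Nppa came near the threshold (adjusted p = 0.76, 0.86 and 0.87). Myh7, the slow myosin heavy chain, read 10584 ± 5949 and 21161 ± 3385 (1.15, adjusted p = 0.23).

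Some genes of calcium handling and conduction fell. Of 15 measured calcium handling genes 4 fell and none rose, 12 lay below 0 and the median was -0.23. Casq2, calsequestrin, which stores calcium in the sarcoplasmic reticulum, fell from 3994, 4030 and 4141 in WT control hearts to 2286, 2348 and 2870 in WT DOX hearts (-0.70 ± 0.10, SE, limma adjusted p = 0.016). Cacnb2, a subunit of the L-type channel, went from 288 ± 9.56 to 144 ± 47.9 (-0.90), Jph2, which holds the channel near the reticulum, from 1261 ± 92.4 to 851 ± 139 (-0.56), and the dim Fkbp1b, a ryanodine receptor partner, from 24.2 ± 3.37 to 15.8 ± 2.89. Atp2a2, the SERCA2 pump, read 22818 ± 402 and 21331 ± 917 (-0.10, adjusted p = 0.14, and 0.037 without WT DOX replicate 3) and its 6 probe sets did not share a sign. Of 17 ion channel and connexin genes 2 fell and none rose, with a median of -0.10. Gja1, connexin 43 of the gap junctions, fell from 7370, 6886 and 8151 to 4145, 4412 and 5077, with 3 further probe sets called the same way (-0.71, adjusted p = 0.017). Kcnq1, a repolarising potassium channel, fell by 0.47 (adjusted p = 0.045). None of the 6 atrial markers was called, with a median of -0.04. Leaving out WT control replicate 3, the adjusted p was 0.071 for Casq2, 0.1 for Cacnb2, 0.093 for Jph2, 0.14 for Fkbp1b, 0.075 for Gja1 and 0.13 for Kcnq1.

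Several collagen genes fell. Of 24 measured collagen and matrix genes 5 fell, all of them collagens, and none rose, with a median of -0.55. Col6a1, Col6a2 and Col6a3, which form collagen VI around muscle cells, fell by 1.02, 1.13 and 1.32. Col6a2 read 670, 570 and 704 in WT control hearts and 227, 266 and 351 in WT DOX hearts (limma adjusted p = 0.02), with its second probe set called. Col15a1, of basement membranes, fell from 225, 177 and 214 to 60.1, 66 and 78.2 (-1.24, adjusted p = 0.013) and Col5a1, which seeds collagen fibrils, by 0.91 (adjusted p = 0.022). The treated hearts of all 5 genes lay below every control, as for 12.8% of all probe sets, which adds no separate support to the calls. Col3a1 had the lowest value, from 975, 1155 and 2029 to 203, 223 and 480, without passing the test (-2.11 ± 0.52, SE, adjusted p = 0.06, and 0.04 without WT DOX replicate 3). Col1a1 read 80.5 ± 17.2 and 42.3 ± 10.6 (adjusted p = 0.21). Against the trend of the list, Lox, which cross-links collagen, read 72.1, 78 and 80.1 against 296, 284 and 111 (1.18, adjusted p = 0.13). Without WT control replicate 3 the adjusted p of Col6a1, Col6a2, Col6a3, Col15a1 and Col5a1 was 0.11, 0.083, 0.12, 0.062 and 0.089.

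Some fibroblast markers fell beside the collagens. Of 10 measured, Lum, Dpt and Pcolce fell, none rose, 8 lay below 0 and the median was -0.31. Lum, the proteoglycan lumican, read 1611, 1532 and 1871 in WT control hearts and 550, 522 and 592 in WT DOX hearts (-1.53 ± 0.15, SE, limma adjusted p = 0.0044). Dpt, dermatopontin, fell by 0.83 and Pcolce, which helps trim procollagen, by 1.03 (adjusted p = 0.045 and 0.033, and 0.15 and 0.12 without WT control replicate 3). These 3 encode matrix proteins and are not independent of the list above. The summed intensity of the 10 markers ran from 11611 to 13667 in WT control and from 10178 to 11357 in WT DOX hearts. Whether fibroblast content took part in the fall of the collagens was not tested.

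Ccn1 and Ccn2 rose while collagens fell. Of 17 measured matricellular and TGF-beta pathway genes 2 rose and 2 fell, with a median of -0.02. Both are secreted proteins that mechanical load and YAP signalling induce. Ccn1 read 399, 310 and 365 in WT control hearts and 769, 862 and 624 in WT DOX hearts (1.00 ± 0.13, SE, limma adjusted p = 0.011), and all 4 of its probe sets were called. With WT control replicate 3 left out, its adjusted p was 0.05 and it was not called. Ccn2 read 1140, 1988 and 1057 against 5859, 4910 and 2725 (1.65, adjusted p = 0.033, and 0.12 without that array). Tgfb1 fell by 0.47 and Smad3, which carries its signal, by 0.34 (adjusted p = 0.044 and 0.045, and 0.15 and 0.12 without WT control replicate 3). Postn, periostin of activated fibroblasts, read 289 ± 83.3 and 97.3 ± 25.6 (-1.30, adjusted p = 0.24).

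**Figure D4:**
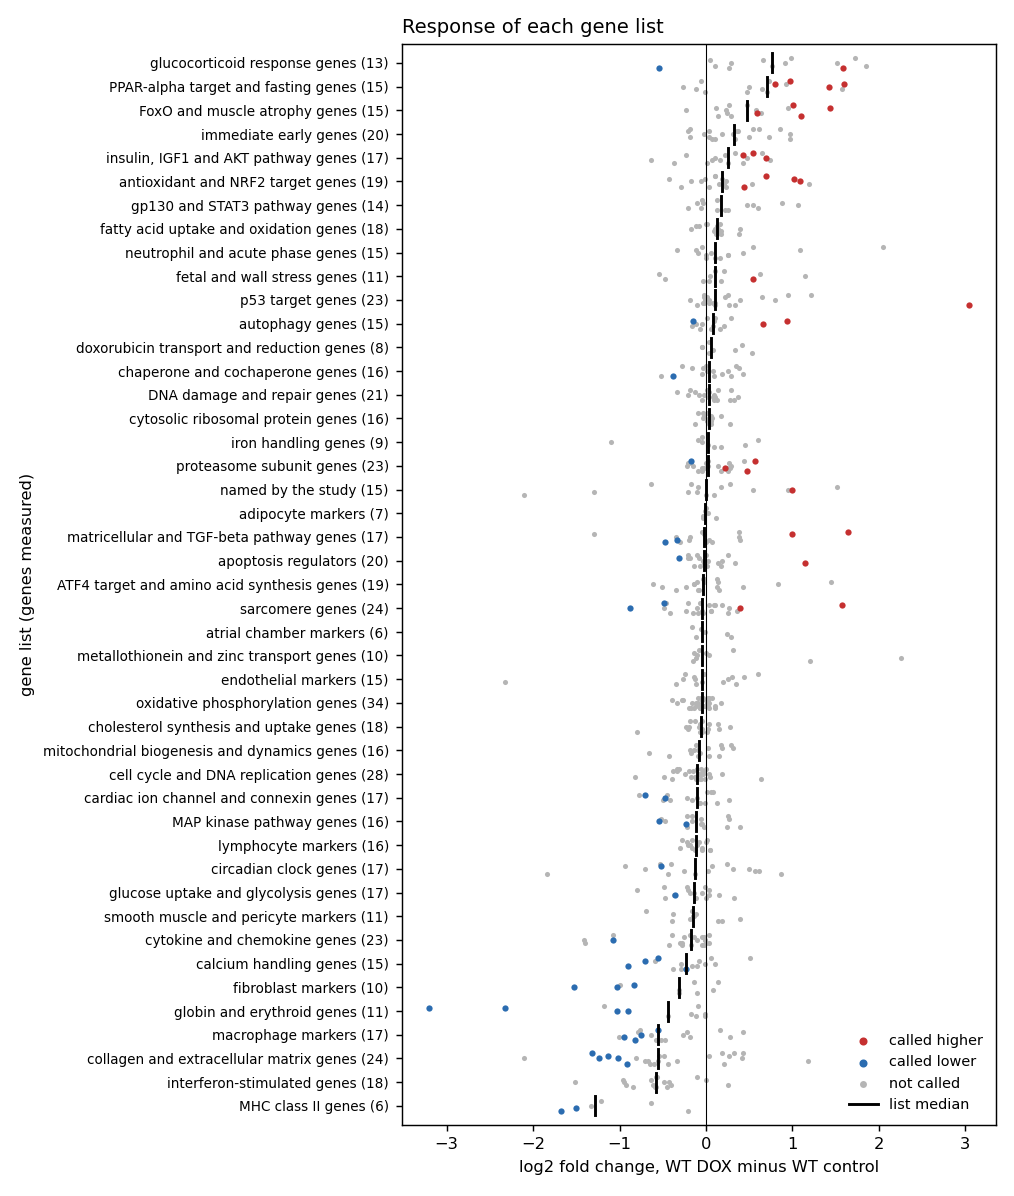
Log2 fold change (WT DOX minus WT control) of every measured member of the 45 gene lists, 1 point a gene, red for members called higher, blue for members called lower and grey for the rest, with the list median as a black bar and the number of genes measured in brackets. Lists are ordered by median, from glucocorticoid response genes (0.76) to MHC class II genes (-1.28), and in most lists near 0 few members were called.

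Some macrophage markers fell. Of 17 measured macrophage markers 4 fell, none rose, 14 lay below 0 and the median was -0.55. Csf1r, the receptor that macrophages need to survive, fell from 1452, 1719 and 1843 in WT control hearts to 926, 985 and 1010 in WT DOX hearts, with all 3 probe sets called (-0.75, limma adjusted p = 0.016). Cd68, a lysosomal protein of macrophages, fell from 124, 108 and 135 to 47.9, 52.4 and 43.1 (-0.95, adjusted p = 0.019). Timd4 and Folr2, which mark long-lived resident macrophages, fell by 0.55 and 0.82, from 34.1 ± 3.4 to 13.1 ± 2.53 and from 144 ± 20.8 to 67.5 ± 6.14. Timd4 was dim in both groups. Mertk, a receptor for clearing dead cells, read 0.43 with an adjusted p of 0.08. The summed intensity of the 17 markers ran from 6434 to 8105 in WT control and from 3976 to 5412 in WT DOX hearts. Without WT control replicate 3 the adjusted p was 0.071 for Csf1r, 0.079 for Cd68, 0.11 for Folr2 and 0.033 for Timd4.

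All 6 measured MHC class II genes lay below 0, with the lowest median of the 45 lists, -1.28, and H2-Aa and H2-Ab1 fell. These encode the chains that present peptides to helper T cells. H2-Aa read 1263, 2663 and 1602 in WT control hearts and 568, 460 and 550 in WT DOX hearts (-1.68 ± 0.37, SE, limma adjusted p = 0.043), and H2-Ab1 read 368, 773 and 453 against 176, 141 and 158 (-1.50, adjusted p = 0.033). Treated hearts were tight and controls spread, with WT control replicate 2 the highest. H2-Eb1 read -1.33 and Cd74, the invariant chain, -1.22, with no overlap and adjusted p of 0.075 and 0.054. The groups did not overlap for any of the 6 genes, against 12.8% of all probe sets with every treated heart below every control. H2-Aa was not called without any 1 of the 6 WT arrays, at 0.051 to 0.13, and H2-Ab1 was at 0.096 and 0.1 without WT control replicates 2 and 3.

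No interferon-stimulated gene and no cytokine or chemokine gene was called higher. Of 18 measured interferon-stimulated genes 16 lay below 0 with a median of -0.58, and none was called. At an unadjusted limma p under 0.05, 12 of the 18 were lower and none higher, against 12.5% and 9.78% of all genes. Igtp, an interferon-inducible GTPase, was lowest, from 529, 1531 and 893 in WT control hearts to 412, 303 and 199 in WT DOX hearts (-1.52, limma adjusted p = 0.057). Of 23 cytokine and chemokine genes 21 lay below 0 with a median of -0.17, and Pf4, a chemokine of platelets and macrophages, fell from 459, 423 and 533 to 213, 218 and 184 (-1.08, adjusted p = 0.016, and 0.071 without WT control replicate 3). Cxcl9 and Ccl8, chemokines for T cells and monocytes, read -1.41 and -1.40 (adjusted p = 0.12 and 0.09). Il1b, Il6 and Tnf read 37.2 ± 8.63, 6.87 ± 0.478 and 35.5 ± 4.03 in control and 29.3 ± 6.59, 6.87 ± 1.15 and 31.2 ± 6.41 in treated hearts, so that a change in these dim genes was not detected. None of 16 lymphocyte markers was called (median -0.11), and 13 of them had a mean intensity under 64.

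Neutrophil and acute phase genes set 1 heart apart. None of 15 measured was called, with a median of 0.11, and the median shift was 0.74 in WT DOX replicate 2 against -0.04 and -0.06 in replicates 1 and 3. S100a8, a calgranulin of neutrophils, read 304, 819 and 891 in WT control hearts and 403, 3095 and 239 in WT DOX hearts. Lcn2, an iron-trapping protein of neutrophils and injured tissue, read 71.9, 66.2 and 54.8 against 165, 514 and 161 (1.52, limma adjusted p = 0.52). Serpina3n, an acute phase protease inhibitor, read 131, 126 and 144 against 756, 1110 and 323 (2.05, adjusted p = 0.26). WT DOX replicate 2 was the highest heart for all 3. Cp, the copper carrier ceruloplasmin, read 1.09 on its brightest probe set (adjusted p = 0.14) and was called higher on 3 of its other 7. Without WT DOX replicate 2 the median of the list was -0.06.

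None of the listed vessel cell markers was called. Of 15 endothelial markers the median was -0.04, and Aplnr, the apelin receptor, had the lowest value, from 411, 348 and 479 in WT control hearts to 35.5, 44.6 and 99.4 in WT DOX hearts (-2.33 ± 0.61, SE, limma adjusted p = 0.072). The other Aplnr probe set read -0.60. Tek, the angiopoietin receptor, read 596 ± 53.5 and 499 ± 32.4 and Cldn5, of endothelial tight junctions, read 0.60 (adjusted p = 0.096 and 0.17). Of 11 smooth muscle and pericyte markers none was called, with a median of -0.15, and Smtn, smoothelin, read 216 ± 43.8 and 121 ± 12.6 (adjusted p = 0.056). Outside these lists, Cd34 and Vcam1, picked out after their values were seen, each had a probe set called lower. Those probe sets read -0.98 and -0.49 (limma adjusted p = 0.0099 and 0.035).

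A further list held 19 genes singled out in the running text of the study, not those of its tables, among them Stub1, Stat3, Bcl2, Il6, Igf1 and Btg2. Of its 15 measured members, Ccn1 was called in WT hearts and no other. Btg2, an antiproliferative p53 target, read 236 ± 20.4 in WT control and 505 ± 182 in WT DOX hearts (0.95, limma adjusted p = 0.1). Ptpn6, the phosphatase SHP-1, read 102 ± 11.2 and 84.1 ± 7.94 (-0.21, adjusted p = 0.23). Cyp2b10, a cytochrome P450, and Mthfd2, of one-carbon metabolism, were dim, at 31 ± 4.6 and 61.5 ± 3.32 in control hearts and 47.5 ± 28.2 and 55.6 ± 4.1 in treated hearts. The list median was -0.00. Some members, such as Btg2, Cyp2b10 and Mthfd2, were named by the study from these arrays, for CHIP-altered against WT hearts after DOX. Others were studied there by other means, such as Stub1 and Stat3 as proteins and Il6 by qPCR. The list as a whole is therefore not independent evidence of a direction.

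As a reference, the 6 arrays of CHIP-altered hearts were fitted in the same model, and they share the estimate of the spread but no array with the WT contrast. DOX called 990 probe sets there (2.2% of those tested), 329 higher and 661 lower. Of the 1379 WT calls 1257 (91.2%) had the same sign in CHIP-altered hearts, against 59.2% of all probe sets and 68.5% of those with a mean intensity of at least 64. Those called in both in the same direction numbered 312, or 22.6% of the WT calls and 31.5% of the CHIP-altered calls, and 4 were called in opposite directions. The median change of the WT calls in their own direction was 0.45 in WT hearts, where they were chosen, and 0.23 in CHIP-altered hearts. No probe set passed the test of the difference between the 2 responses (0% called, smallest adjusted p = 0.076), while 3914 (8.69%) had an unadjusted p under 0.05. A response particular to WT hearts was therefore not shown for any gene, and with 3 arrays a group a miss does not show that the responses were alike.

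**Figure D5:**
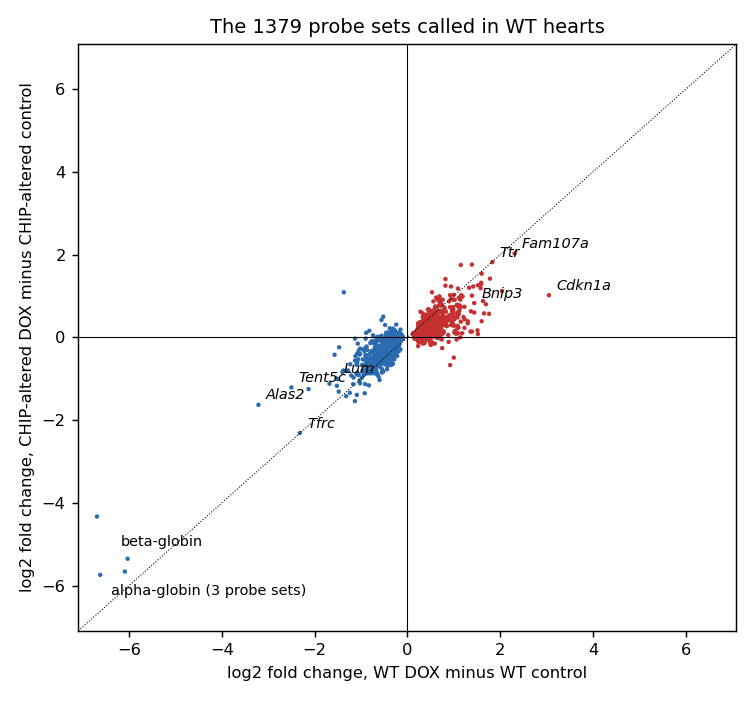
Log2 fold change with DOX in CHIP-altered hearts against that in WT hearts for the 1379 probe sets called in WT hearts (red, higher in WT DOX; blue, lower), with the dotted line marking equal change. Of these, 1257 share a sign, the globin probe sets are lowest in both, and Cdkn1a is at 3.05 in WT and 1.02 in CHIP-altered hearts.

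Single genes in CHIP-altered hearts covered a range. Tfrc read 1379, 1678 and 917 without DOX and 118, 219 and 472 with it, a change of -2.31 beside -2.32 in WT hearts. Fam107a read 2.03 beside 2.31, Bnip3 0.83 beside 1.44 and Lum -0.99 beside -1.53, all of them called in both. Efnb3 read -0.24 beside -1.47, Abra 0.17 beside 1.51 and Ccn2 0.58 beside 1.65, with limma adjusted p of the difference at 0.5, 0.43 and 0.57. Atg7, Ccn1 and Gm19277 had the opposite sign there, at 0.19, -0.49 and 1.09, and the adjusted p of the difference was 0.076 for each, the smallest of all probe sets. Myot differed in its level, with 67.8, 58.2 and 63.1 in CHIP-altered control hearts against 369, 459 and 413 in WT control hearts, and rose in both (1.19 and 1.58). For Cdkn1a, CHIP-altered control replicate 3 stood apart at 2794, beside 419 and 345 in the other 2 and 2129, 1666 and 1071 in the DOX-treated hearts, and it correlated least with its own group (mean r = 0.9896). It goes against its label for this gene, although the brightest alpha-globin probe set, at 7920 there, was far above the CHIP-altered DOX hearts, at 176 to 435. Without this array the Cdkn1a change in CHIP-altered hearts was 1.95 (adjusted p = 0.051), 690 probe sets were called there, 1277 of the WT calls (92.6%) had the same sign, and no difference between the responses was called (smallest adjusted p = 0.22).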

How the data were processed

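RNA of mouse hearts was hybridised to 12 Affymetrix arrays, each labelled as a biological replicate. The intensities deposited by the authors are linear values made with Affymetrix Expression Console. Its version, background correction and summary method are not given in the sources used here. No further scaling was applied. Intensities were taken to log2(intensity + 32), and limma 3.58.1 (R 4.3.3) estimated 4 group means from the 12 arrays together, with eBayes, no trend and 8 residual degrees of freedom. The p-values are two-sided and adjusted by Benjamini-Hochberg over 45037 probe sets, and a value under 0.05 was called. The fit was first tested on simulated data. The number of arrays limits the precision, and an exact permutation test of 3 against 3 cannot go below 0.1.

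A gene was represented by its probe set with the highest mean over the 12 arrays. Probe sets assigned to several genes or to none were tested but not named, apart from the globin and histone families. Genes were named if they were among the 15 largest rises or falls without overlap between groups, the 4 smallest p of a list, called members of a list with at most 5 called, genes the study names, or genes that define a list; some of these are left out for length, and a few others are named as the extremes of a list. A few genes outside the lists were picked out after their values were seen, as stated where they are named. The members and the 45 gene lists were chosen with earlier results of these data known. Of 789 distinct list members 721 were matched, and the rest were not analysed here. Promoters are from RefSeq.

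The alternatives were quantile or median scaling, added values of 8 and 128, a filter at a mean intensity of 64, a trended and robust variance, the WT arrays alone, a replicate block, array weights, the methods' t-test, stricter thresholds, the mean over a gene's probe sets, and leaving out each array. The replicate numbers did not pair the samples, since deviations of same-numbered WT arrays correlated at 0.06, 0.04 and 0.03.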

Additional observations from a re-analysis of the deposited data

How the results depend on the processing

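The count of 1379 probe sets called in WT hearts stayed within 1.5 times under quantile scaling (1630), median scaling (1188), a smaller (1885) and a larger added value (990), a trended and robust variance (1985) and a filter on dim probe sets (2006 of 16087). It was 911 with the 6 WT arrays alone, of which 588 were shared in direction, 2555 with array weights, 54 at an adjusted p under 0.01, 415 with at least a 1.5-fold change and 4 with the methods' t-test, which gave 6756 at an unadjusted p under 0.05. Leaving out 1 array gave 41 to 2285, with 41 without WT control replicate 3, 114 without WT control replicate 2, 157 and 266 without WT DOX replicates 2 and 1, 2285 without WT DOX replicate 3 and 868 without WT control replicate 1. Leaving out CHIP-altered arrays, which enter only the estimate of the spread, gave 828 to 2101. Of the 82 named genes called, 51 were still called with the 6 WT arrays alone and 57 with the larger added value. The replicate block gave 1335 calls, 1005 of them shared, and kept 66 of the 82 named genes called. Whether the numbers pair the samples was not settled, so what a call lost there means was not settled either.

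The 990 calls in CHIP-altered hearts became 1660 with the filter and 116 to 1090 when 1 array was left out, with 116 and 302 without CHIP-altered DOX replicates 1 and 2. The 0 probe sets called for the difference between the responses became 3 with the smaller added value, 4 with a trended and robust variance, 3 with the filter, 5 with array weights and 0 to 2 when 1 array was left out. None of the 82 called named genes changed direction under any alternative that refitted them. The 4 globin probe sets were called in 21 of 22 alternatives, the exception being the methods' t-test. Of 674 list medians compared, 98 moved by more than the spread between WT DOX arrays. Medians near 0 changed sign for the atrial, metallothionein, mitochondrial biogenesis, sarcomere, proteasome and iron lists, and the neutrophil and acute phase median of 0.11 was -0.06 without WT DOX replicate 2. In each case the cause was not tested. Dim probe sets limit what could be measured, since 51.4% had a mean intensity under 32.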
